A study of Homo sapiens with 6 samples.

Results

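The HOX cluster genes are described here across 6 libraries of 2 human gastric cancer cell lines. Members were the rows whose symbol is HOXA, HOXB, HOXC or HOXD followed by a number, which gave 40 rows and 39 gene symbols of 51103 genes in all. HOXC5 has 2 rows, a protein-coding gene and a processed transcript that shares 99.8% of its exon bases with neighbouring genes. The processed transcript had 0 counts in every library, and HOXC5 below means the protein-coding row.

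Polyadenylated RNA was sequenced from AGS, a line from a gastric adenocarcinoma, and from HGC-27, which derives from an undifferentiated gastric carcinoma. Each line carried a lentivirus for overexpression of NINJ1 (ninjurin-1, a cell-surface protein of adhesion and of membrane rupture in lytic death) or a negative control, and cells were lysed after 48 hours. There were 2 libraries of AGS with the NINJ1 virus, 1 of AGS with the negative control, 2 of HGC-27 with the NINJ1 virus and 1 of HGC-27 with the negative control. What the control virus carries is not given in the sources used here, and whether libraries of a group came from separate cultures is not labelled, so that p-values cover library-to-library spread that may be technical.

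HOX genes encode homeodomain transcription factors that tell cells of the embryo where they lie along the body axis. In each cluster the genes stand in the order in which they are used from head to tail: the low-numbered (anterior) members act in the hindbrain and pharyngeal arches, and the high-numbered (posterior) members in the lower trunk, limbs, hindgut and urogenital tract. Adult cells and cancer lines often keep part of this pattern. Here paralogue groups 1 to 3 are called anterior (8 genes), 4 to 8 central (15 genes) and 9 to 13 posterior (16 genes). In GRCh38 the HOXA cluster lies on chr7 with 11 genes, HOXB spans chr17:48528526-48729178 with 10, HOXC chr12:53938765-54056030 with 9 and HOXD chr2:176092891-176190907 with 9.

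Several facts of the libraries touch every value below. Total counts were 12619684 to 13948290 in the AGS libraries and 14482670 to 18175697 in the HGC-27 libraries. Sample titles and file names put the second NINJ1 library of each line in opposite lines. The lines of the file names are used here. There were 13 genes that reached 100 counts in each undisputed AGS library and had 0 in both of HGC-27. Of these the disputed library with the AGS file name had at least 10 counts for 13, and the one with the HGC-27 file name for 0. Of 15 genes with the opposite profile, it was 0 and 15. These genes were picked after the data were seen. The HGC-27 control stood apart in base composition: its genes with a GC content of at most 40% had a median of 0.56 above the mean of the 6 libraries (log2), and those over 65% a median of -2.38. In the other 5 libraries, medians over the same classes ran from -0.24 to 0.78. The libraries labelled NINJ1 did not all carry more NINJ1 RNA. In AGS, NINJ1 measured 19.5 and 15.9 TMM-scaled CPM (the count as a share of the scaled library total) in the NINJ1-labelled libraries, against 28.4 in the control (log2 -0.68, SE 0.19, adjusted p = 0.0148), which goes against the label. In HGC-27 it measured 17.2 and 19.1 CPM in the NINJ1-labelled libraries, against 4.89 in the control (log2 1.89, SE 0.24, adjusted p = 3.22e-08), and 0.58 (adjusted p = 0.0334) after correction for GC content. KRT8 and KRT18, keratins of simple epithelium, measured 48.6 to 82.8 and 64.6 to 111 FPKM over the 6 libraries, while the epithelial markers KRT19 and CDH1 stayed at or under 0.0339 and 0.454 FPKM. The leukocyte marker PTPRC stayed at or under 0.00753 FPKM.

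Promoter sequences of 4 members are given as examples of this family's start sites. HOXA11 and HOXA13 lie next to each other at the posterior end of the HOXA cluster and were well expressed. HOXB1 and HOXD12 had 0 counts in all 6 libraries. Each window runs from 250 bases before to 50 bases after the start of the gene (RefSeq, GRCh38.p14), on the strand of the gene, and capitals mark CG dinucleotides. The windows are chr7:27185183-27185482 (minus strand) for HOXA11, chr7:27200042-27200341 (minus strand) for HOXA13, chr17:48530962-48531261 (minus strand) for HOXB1 and chr2:176099545-176099844 (plus strand) for HOXD12.
HOXA11: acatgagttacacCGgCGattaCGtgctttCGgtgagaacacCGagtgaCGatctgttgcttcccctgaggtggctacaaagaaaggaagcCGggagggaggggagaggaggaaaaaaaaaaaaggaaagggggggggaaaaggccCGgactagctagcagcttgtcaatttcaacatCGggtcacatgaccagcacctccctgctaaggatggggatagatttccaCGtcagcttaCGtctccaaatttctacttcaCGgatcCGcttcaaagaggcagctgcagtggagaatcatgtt
HOXA13: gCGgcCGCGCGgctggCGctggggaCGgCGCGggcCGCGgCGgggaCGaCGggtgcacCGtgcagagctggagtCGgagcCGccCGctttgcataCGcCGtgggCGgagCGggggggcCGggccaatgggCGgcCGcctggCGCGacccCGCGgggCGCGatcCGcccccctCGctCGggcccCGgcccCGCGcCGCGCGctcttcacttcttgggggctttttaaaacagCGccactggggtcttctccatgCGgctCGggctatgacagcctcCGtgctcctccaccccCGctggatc
HOXB1: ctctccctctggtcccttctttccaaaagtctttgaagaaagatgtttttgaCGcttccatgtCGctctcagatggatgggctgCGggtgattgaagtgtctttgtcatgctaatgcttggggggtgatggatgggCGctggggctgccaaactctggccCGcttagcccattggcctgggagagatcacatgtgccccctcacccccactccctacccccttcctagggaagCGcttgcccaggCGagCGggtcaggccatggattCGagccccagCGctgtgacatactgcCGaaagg
HOXD12: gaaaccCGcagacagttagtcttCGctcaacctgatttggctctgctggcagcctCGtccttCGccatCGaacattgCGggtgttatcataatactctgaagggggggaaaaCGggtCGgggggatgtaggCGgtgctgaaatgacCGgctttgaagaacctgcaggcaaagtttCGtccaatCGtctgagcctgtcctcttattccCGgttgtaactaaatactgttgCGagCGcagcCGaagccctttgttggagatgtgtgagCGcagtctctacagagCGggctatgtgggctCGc
The HOXA13 window holds 44 CG dinucleotides, more than 95.8% of all 35116 promoter windows, and the HOXA11 window holds 13. Of the genes with 0 counts in every library, HOXB1 has 11 and HOXD12 has 19, while HOXD3 and HOXD1, whose windows are not printed, have 25 and 36. Over the 27 windows of the 20 HOX genes in the table the median was 22 (range 0 to 44), against 14 over all windows. The letters TATAAA, searched on both strands, are in 5 of the 27 HOX windows (18.5%), against 11.5% of all windows. These windows are not independent: HOXA3 has several, HOXC4 and HOXC5 share the same one, and both HOXA10 windows hold the letters. The share was not tested.

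Both lines expressed a posterior HOX pattern led by the HOXC cluster. FPKM divides a read count by the length of the gene and by the library's total, so it can be compared between genes, whereas fold changes below come from TMM-scaled counts (scaling factor 0.799 for the HGC-27 control and 1.016 to 1.062 for the others). Posterior genes made up 76.3%, 76.5% and 79.2% of the summed HOX FPKM in the NINJ1 and control libraries of AGS, against 72.4%, 71.2% and 73.3% in those of HGC-27. The lines did not overlap (77.4 ± 1.62% in AGS, 72.3 ± 1.03% in HGC-27; SD, n = 3 each). Anterior genes made up 3.09 ± 0.051% in AGS and 1.36 ± 0.339% in HGC-27, again with no overlap. These shares are a description, with no test. In RNA from whole cultures, fewer cells that express a gene and less RNA per cell cannot be told apart.

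**Figure D1:**
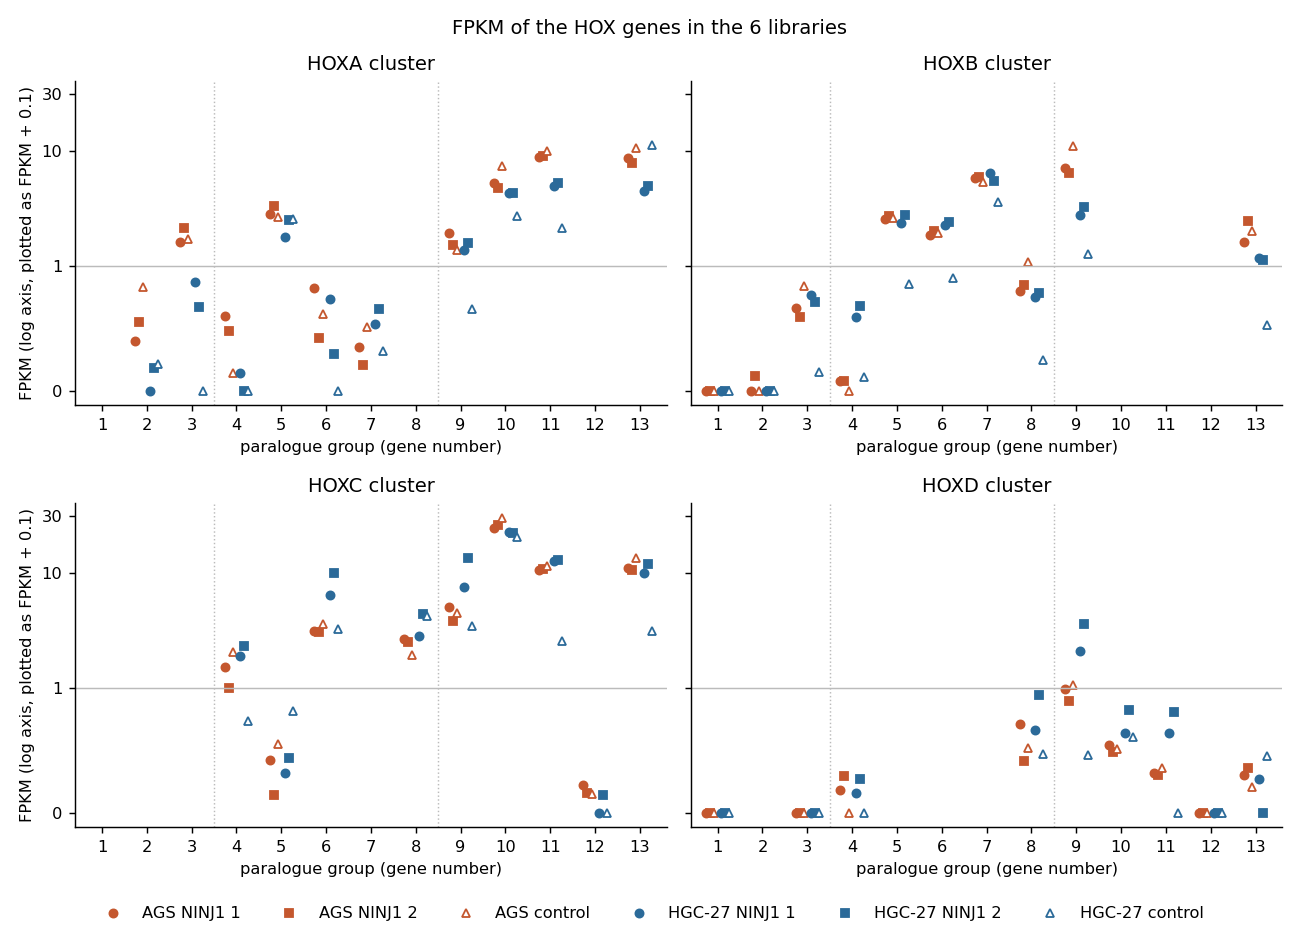
FPKM of HOX genes by cluster and paralogue group, on a log axis (plotted as FPKM + 0.1, so that 0 can be shown); points are single libraries, red for AGS and blue for HGC-27, with open triangles for the controls. Dotted lines part anterior, central and posterior groups, and the highest points are posterior, above all HOXC10 at 20.1 to 29.1 FPKM.

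By cluster, HOXC held 51.8 ± 0.375% of the HOX FPKM in AGS and 61.2 ± 3.05% in HGC-27. HOXA held 27.9 ± 0.481% in AGS and 22.1 ± 7.16% in HGC-27, where the NINJ1 libraries had 18.7% and 17.2% and the control 30.3%. HOXB held 18.8 ± 0.623% in AGS and 13.5 ± 2.92% in HGC-27. HOXD, in spite of its 9 genes, held 1.49 ± 0.223% in AGS and 3.21 ± 1.74% in HGC-27. For HOXB and HOXC the lines did not overlap. For HOXA and HOXD they overlapped only through the HGC-27 control, whose HOXA share of 30.3% lay above all 3 AGS libraries and whose HOXD share of 1.42% lay within theirs. The summed HOX FPKM itself was 112, 110 and 129 in the NINJ1 and control libraries of AGS, against 103, 120 and 66.0 in those of HGC-27.

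**Figure D2:**
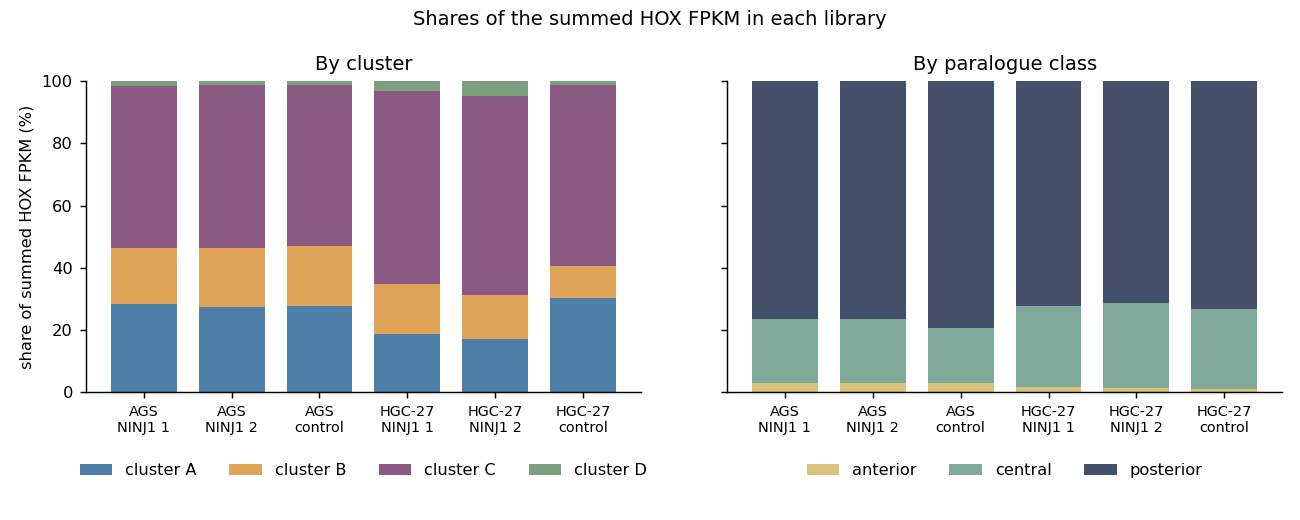
Share of the summed HOX FPKM (percent) by cluster (left) and by paralogue class (right), 1 bar per library with AGS left of HGC-27. The posterior class fills 71.2% to 79.2% of every bar, and the HOXC cluster 51.5% to 63.9%.

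At the level of single genes, 12 of the 39 reached 1 FPKM in all 6 libraries and 18 in none. The 12 were HOXA5, HOXA10, HOXA11, HOXA13, HOXB7, HOXB9, HOXC6, HOXC8, HOXC9, HOXC10, HOXC11 and HOXC13. Of these, 8 are posterior (of 16 posterior genes), 4 central (of 15) and 0 anterior (of 8). For comparison, 21.3% to 25.4% of all 51103 genes reached 1 FPKM in a given library. HOXB1, HOXD1, HOXD3 and HOXD12 had 0 counts in every library, which allows up to 0.165 to 0.238 CPM of a library's total (3 counts, counting error only), and HOXB2 had 1 count in all. HOXD1 and HOXD3 share 58.1% and 74.1% of their exon bases with other genes, including HAGLR on the opposite strand. For HOXD1 the shared bases are mostly on the opposite strand (1147, against 59 on the same strand). For HOXD3 they are mostly on the same strand (2206, against 518 on the opposite strand). Reads from opposite-strand stretches could not be told apart without strand, and those from same-strand stretches not even with it. In the HOXD cluster 8 of 9 genes stayed under 1 FPKM everywhere.

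HOXC10 (chr12:53985065-53990279, plus strand), a posterior gene used in the hindlimb and lumbar spinal cord of the mouse, was the most abundant HOX transcript in every library. It measured 23.7 and 25.5 FPKM in the AGS NINJ1 libraries and 29.1 in the AGS control, against 22.1 and 21.5 FPKM in the HGC-27 NINJ1 libraries and 20.1 in the HGC-27 control. HOXC10 alone made up 18.0% to 30.4% of the HOX FPKM, and between 10.8% and 18.9% of the genes at or above 1 FPKM in a library lay above it. In FPKM every AGS library lay above every HGC-27 library. In TMM-scaled CPM the HGC-27 control, at 58.6, lay above both AGS NINJ1 libraries (51.9 and 56.8). The difference between the lines did not pass the test (log2 0.17, SE 0.18, adjusted p = 0.579).

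HOXC11 and HOXC13, of the same cluster, held the next places in 4 of the libraries. HOXC11 measured 10.6 and 10.8 FPKM in the AGS NINJ1 libraries and 11.5 in the AGS control, against 12.5 and 12.9 FPKM in the HGC-27 NINJ1 libraries and 2.63 in the HGC-27 control. HOXC13, a regulator of hair keratins, measured 11.1 and 10.6 FPKM in the AGS NINJ1 libraries and 13.4 in the AGS control, against 9.92 and 11.8 FPKM in the HGC-27 NINJ1 libraries and 3.18 in the HGC-27 control. For both genes 5 libraries were close together and the HGC-27 control was low. The order below HOXC10 differed in both other libraries. In the second HGC-27 NINJ1 library HOXC9 (13.3 FPKM) and HOXC11 came next, and in the HGC-27 control HOXA13 (11.3 FPKM) and HOXC8 (4.34 FPKM).

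AGS was compared with HGC-27 over all 6 libraries with treatment as a term, in a fit of 17617 genes that 30 HOX genes entered; HOXA4, HOXB1, HOXB2, HOXC12, HOXD1, HOXD3, HOXD4, HOXD12, HOXD13 and the second HOXC5 row had too few counts. Of them 0 were higher in AGS, where 3.27% of all genes tested were called higher, and 1 was lower, where 2.87% were called lower. The HOX median was 0.31 (log2), against 0.08 over all genes tested. This is by edgeR, which gave 5 HOX genes higher and 2 lower at an unadjusted p under 0.05; DESeq2 called 3 higher and 1 lower after adjustment, and limma on log2(FPKM + 1) called 1 higher and 0 lower of 19. Without the HGC-27 control, the comparison rests on the 2 AGS against the 2 HGC-27 NINJ1 libraries, with the AGS control fitted by its own term. Then 6 HOX genes were higher and 6 lower of 29 tested, where 21.0% and 20.4% of all genes tested were called, so the HOX share is that of genes in general. Leaving out the AGS control instead rests on the same NINJ1 libraries. A shift from the fit of all 6 libraries therefore cannot be given to either control alone. With a correction for GC content over all 6 libraries 4 were higher (background 10.8%) and 3 lower (background 11.1%).

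The 12 genes called without the HGC-27 control fell unevenly over the clusters. In HOXA 4 were higher and 0 lower of 10 tested, in HOXB 2 higher and 1 lower of 8, in HOXC 0 higher and 3 lower of 7, and in HOXD 0 higher and 2 lower of 4. By class it was 2 higher and 0 lower of 4 anterior genes, 0 and 3 of 12 central genes, and 4 and 3 of 13 posterior genes. The posterior genes called higher in AGS were HOXA11, HOXA13, HOXB9 and HOXB13, and those called lower were HOXC9, HOXD9 and HOXD11. The posterior genes HOXA9, HOXA10, HOXC10, HOXC11, HOXC13 and HOXD10 were not called. These counts carry no test of their own, and a test of the difference between clusters was not made.

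**Figure D3:**
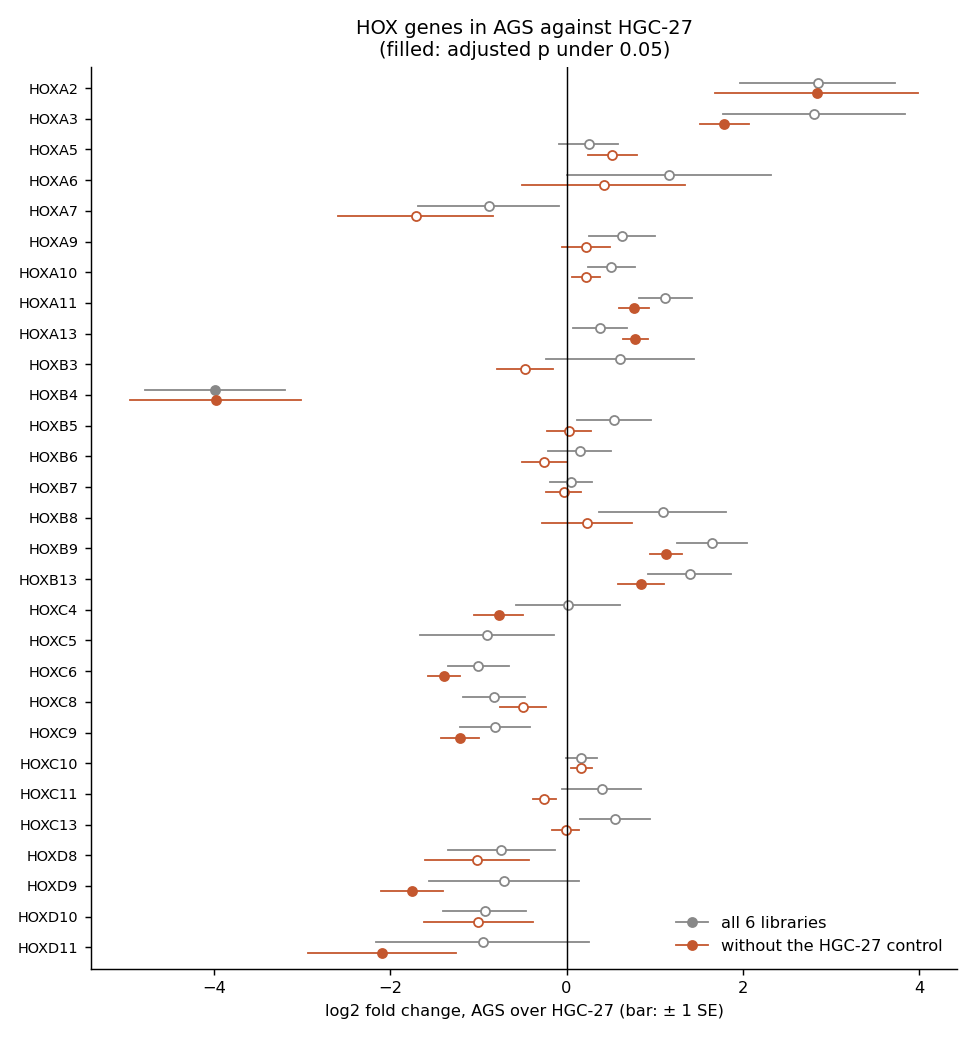
Log2 fold change of AGS over HGC-27 for 29 of the 30 HOX genes tested, with all 6 libraries (grey) and without the HGC-27 control (red); bars are ± 1 SE and filled points have an adjusted p under 0.05. HOXA3, HOXB9, HOXA11, HOXB13, HOXA13 and HOXA2 lie filled on the right and HOXB4, HOXD11, HOXD9, HOXC6, HOXC9 and HOXC4 filled on the left once the HGC-27 control is left out.

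Of the posterior genes higher in AGS, HOXB9 had the smallest adjusted p without the HGC-27 control. HOXB9 (chr17:48621159-48626356, minus strand), a gene of the thoracic region, measured 7.21 and 6.45 FPKM in the AGS NINJ1 libraries and 11.0 in the AGS control, against 2.86 and 3.35 FPKM in the HGC-27 NINJ1 libraries and 1.30 in the HGC-27 control. Every AGS library lay above every HGC-27 library. The change was 1.65 with all libraries (SE 0.40, adjusted p = 0.0701), 1.13 without the HGC-27 control (SE 0.18, adjusted p = 2.49e-06) and 1.34 with the GC correction (adjusted p = 0.00381). No other gene's exons overlap those of HOXB9.

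HOXA11, which with its paralogues shapes kidney, forearm and uterus in the mouse, had the same order. It measured 8.83 and 8.98 FPKM in the AGS NINJ1 libraries and 9.94 in the AGS control, against 5.06 and 5.33 FPKM in the HGC-27 NINJ1 libraries and 2.17 in the HGC-27 control. The change was 1.12 with all libraries (SE 0.30, adjusted p = 0.0906), 0.77 without the HGC-27 control (SE 0.17, adjusted p = 0.000231) and 0.82 with the GC correction (adjusted p = 0.0108). HOXA11 shares 31.1% of its exon bases with its antisense transcript HOXA11-AS, which measured 0.557, 0.698 and 0.733 FPKM in AGS, against 0.177, 0.340 and 0.0176 in HGC-27.

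HOXB13, best known from the prostate and hindgut, measured 1.65 and 2.54 FPKM in the AGS NINJ1 libraries and 2.05 in the AGS control, against 1.19 and 1.13 FPKM in the HGC-27 NINJ1 libraries and 0.254 in the HGC-27 control. The groups did not overlap. Without the HGC-27 control the change was 0.85 (SE 0.26, adjusted p = 0.00726), and with all libraries 1.40 (SE 0.47, adjusted p = 0.146).

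HOXA13 (chr7:27193503-27200106, minus strand), needed for digits, hindgut and genital tubercle, differed with the control library. It measured 8.72 and 7.94 FPKM in the AGS NINJ1 libraries and 10.6 in the AGS control, against 4.60 and 5.04 FPKM in the HGC-27 NINJ1 libraries and 11.3 in the HGC-27 control. The NINJ1 libraries of the lines were well apart (0.78 without the HGC-27 control, SE 0.14, adjusted p = 1.17e-05), while the HGC-27 control lay above every AGS library. With all libraries the change was 0.38 (SE 0.31, adjusted p = 0.493), and with the GC correction 0.47 (adjusted p = 0.117). HOXA13 had the lowest GC content of the HOX genes tested, 43.8%, against a HOX median of 54.2% and 48.1% over all genes tested.

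HOXA10, a gene of the uterus and of myeloid progenitors, measured 5.34 and 4.86 FPKM in the AGS NINJ1 libraries and 7.41 in the AGS control, against 4.36 and 4.36 FPKM in the HGC-27 NINJ1 libraries and 2.76 in the HGC-27 control. All AGS values were above all HGC-27 values, by a change of 0.51 (SE 0.27, adjusted p = 0.314) that did not pass. HOXA9, known for its part in leukaemia, measured 1.99 and 1.54 FPKM in the AGS NINJ1 libraries and 1.40 in the AGS control, against 1.39 and 1.62 FPKM in the HGC-27 NINJ1 libraries and 0.381 in the HGC-27 control. Apart from the low HGC-27 control the lines overlapped for HOXA9.

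Posterior genes on the HGC-27 side were HOXC9, HOXD9 and HOXD11. HOXC9, a thoracic gene, measured 5.10 and 3.90 FPKM in the AGS NINJ1 libraries and 4.53 in the AGS control, against 7.53 and 13.3 FPKM in the HGC-27 NINJ1 libraries and 3.54 in the HGC-27 control. In FPKM the HGC-27 NINJ1 libraries were above all others and the HGC-27 control below all others. In TMM-scaled CPM that control, at 7.44, lay within the AGS range of 6.26 to 8.06. Without that control HOXC9 was lower in AGS by a log2 change of -1.21 (SE 0.22, adjusted p = 1.89e-05), with the GC correction by -1.14 (adjusted p = 0.0191), and with all libraries the value was -0.81 (adjusted p = 0.278).

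HOXD9 (chr2:176122720-176124937, plus strand) was the only HOXD gene above 1 FPKM. It measured 0.975 and 0.765 FPKM in the AGS NINJ1 libraries and 1.07 in the AGS control, against 2.14 and 3.70 FPKM in the HGC-27 NINJ1 libraries and 0.206 in the HGC-27 control. The FPKM pattern was that of HOXC9, with the control of HGC-27 lowest of all. Without it, HOXD9 was lower in AGS (log2 -1.75, SE 0.35, adjusted p = 7.78e-05), whereas with all libraries the value was -0.71 (SE 0.85, adjusted p = 0.644). HOXD11, a limb gene with the highest GC content of the HOX genes tested (65.4%), had 3, 3 and 4 counts in AGS, against 11, 19 and 0 counts in HGC-27. Its call without the HGC-27 control (log2 -2.09, SE 0.84, adjusted p = 0.0445) rests on these few counts.

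Most central genes had no call between the lines. Without the HGC-27 control the 12 tested had a median of -0.37 (log2), with 4 above 0. The 3 calls among them were on the HGC-27 side. HOXC6 (chr12:53990624-54030823, plus strand), a gene of the thoracic region and mammary gland, measured 3.18 and 3.15 FPKM in the AGS NINJ1 libraries and 3.69 in the AGS control, against 6.55 and 9.95 FPKM in the HGC-27 NINJ1 libraries and 3.34 in the HGC-27 control. In FPKM only the HGC-27 NINJ1 libraries stood clear of the rest. In TMM-scaled CPM the HGC-27 control, at 14.8, also lay above every AGS library (10.6 to 12.8). HOXC6 was lower in AGS without the HGC-27 control (log2 -1.39, SE 0.18, adjusted p = 5.94e-08) and with the GC correction (-1.17, SE 0.22, adjusted p = 0.0106), and with all libraries its value had the same sign but did not pass (adjusted p = 0.158).

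HOXC4 is the most anterior HOXC gene. It measured 1.54 and 0.995 FPKM in the AGS NINJ1 libraries and 2.10 in the AGS control, against 1.93 and 2.37 FPKM in the HGC-27 NINJ1 libraries and 0.485 in the HGC-27 control. The lines overlapped, and the value changed with the libraries in the fit. The log2 value was 0.02 with all 6 libraries (adjusted p = 0.986) and -0.77 without the HGC-27 control (SE 0.28, adjusted p = 0.0256). Without the AGS control, and with the HGC-27 control kept, it was -0.76, so the turn cannot be put down to the HGC-27 control alone.

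HOXB4, known for expanding blood stem cells when it is overexpressed, had 1, 1 and 0 counts in the AGS NINJ1 and control libraries, against 17, 23 and 2 counts in those of HGC-27. It was the only HOX gene called over all 6 libraries (log2 -3.99, SE 0.79, adjusted p = 0.0428). The ratio of the summed TMM-scaled CPM, AGS over HGC-27, was 0.0523, with a 95% exact interval of 0.00613 to 0.201 that covers counting error only. The call was lost when any single NINJ1 library was left out (adjusted p = 0.199 to 0.238) and held without the HGC-27 control (adjusted p = 0.00106). HOXB4 shares 17.1% of its exon bases with HOXB3 and other transcripts of the same strand.

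The other central genes above 1 FPKM had no call between the lines. HOXB7 measured 5.91 and 5.97 FPKM in the AGS NINJ1 libraries and 5.49 in the AGS control, against 6.51 and 5.61 FPKM in the HGC-27 NINJ1 libraries and 3.71 in the HGC-27 control. HOXB5 measured 2.60 and 2.80 FPKM in the AGS NINJ1 libraries and 2.67 in the AGS control, against 2.44 and 2.83 FPKM in the HGC-27 NINJ1 libraries and 0.674 in the HGC-27 control. For both, the NINJ1 libraries of the lines overlapped and the HGC-27 control was lowest. HOXB6, which shares 32.9% of its exon bases with HOXB-AS3 and HOXB3, measured 1.92 and 2.08 FPKM in the AGS NINJ1 libraries and 1.98 in the AGS control, against 2.31 and 2.45 FPKM in the HGC-27 NINJ1 libraries and 0.782 in the HGC-27 control.

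HOXA5, needed for lung development in the mouse, measured 2.92 and 3.40 FPKM in the AGS NINJ1 libraries and 2.73 in the AGS control, against 1.82 and 2.57 FPKM in the HGC-27 NINJ1 libraries and 2.61 in the HGC-27 control. All AGS FPKM values were above all HGC-27 FPKM values by a narrow margin. In TMM-scaled CPM the HGC-27 control, at 5.58, lay above every other library, with 4.7, 5.54 and 4.58 in AGS. The difference was not called (log2 0.25, SE 0.33, adjusted p = 0.676). HOXC8, a gene of the lower thoracic vertebrae, measured 2.73 and 2.55 FPKM in the AGS NINJ1 libraries and 1.97 in the AGS control, against 2.92 and 4.47 FPKM in the HGC-27 NINJ1 libraries and 4.34 in the HGC-27 control. Here all AGS values were below all HGC-27 values, and the test was not passed (log2 -0.82, SE 0.35, adjusted p = 0.228).

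Among anterior genes HOXA3 (chr7:27106184-27152581, minus strand), which patterns thymus and parathyroid, was the only one above 1 FPKM on average. It measured 1.66 and 2.17 FPKM in the AGS NINJ1 libraries and 1.75 in the AGS control, against 0.706 and 0.401 FPKM in the HGC-27 NINJ1 libraries and 0 in the HGC-27 control. Every AGS value was above every HGC-27 value. Without the HGC-27 control HOXA3 was higher in AGS (log2 1.79, SE 0.28, adjusted p = 1.93e-06), as with the GC correction (2.44, SE 0.67, adjusted p = 0.0420), and with all libraries the value was 2.81 (SE 1.03, adjusted p = 0.172). HOXA2, a gene of the second pharyngeal arch, had 5, 9 and 22 counts in AGS, against 0, 2 and 3 in HGC-27. Its call without the HGC-27 control (log2 2.84, SE 1.15, adjusted p = 0.0448) rests on these counts, and without the AGS control HOXA2 did not enter the fit, which left 5 HOX genes called higher and 6 lower. HOXB3 ran from 0.313 to 0.644 FPKM in AGS and from 0.0443 to 0.528 FPKM in HGC-27.

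The following members stayed at low counts. HOXB8 had 15 to 31 counts in AGS, against 3 to 17 in HGC-27. HOXA6, HOXA7, HOXC5, HOXD8 and HOXD10 had between 0 and 34 counts in a library, and HOXA4, HOXC12, HOXD4 and HOXD13 between 0 and 8. At these counts a moderate difference between the lines was not detectable.

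NINJ1-labelled and control libraries were then compared within AGS. Few HOX genes were called: 0 were higher and 2 lower of 30, where 5.73% of all genes tested were called higher and 9.30% lower, so the HOX share was near the background. The median was -0.18 over HOX genes (log2) and 0.00 over all genes tested, and 22 of the 30 values were below 0. Only 1 of the 13 posterior genes tested had a value above 0. At an unadjusted p under 0.05 edgeR had 0 higher and 5 lower, DESeq2 called 0 in either direction after adjustment (0 higher and 2 lower unadjusted), and limma called 0 (0 and 3 unadjusted). HOXB9 fell to 7.21 and 6.45 FPKM in the NINJ1-labelled libraries, against 11.0 FPKM in the control (log2 -0.74, SE 0.20, adjusted p = 0.00997). HOXA10 fell to 5.34 and 4.86 FPKM in the NINJ1-labelled libraries, against 7.41 FPKM in the control (log2 -0.59, SE 0.19, adjusted p = 0.0309). Both calls were lost without the second AGS NINJ1 library (adjusted p = 0.149 and 0.273), and that of HOXA10 also without the first (0.116), and with the lines taken from the titles 0 were lower. The 1 control is assumed in these fits to vary like the NINJ1 libraries. In the same comparison 3 of the 3 tested endothelial and fibroblast markers (of 4 listed) fell, with a summed level of 3.92 and 3.35 FPKM in the NINJ1-labelled libraries, against 11.3 FPKM in the control, and of this list VWF stayed at or under 0.0534 FPKM. Their part in the HOX result was not tested.

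Within HGC-27 more HOX genes were called than in AGS, as were more of all genes tested, and the counts changed with the GC correction. Of 30 HOX genes 17 (56.7%) were higher and 3 (10%) lower in the NINJ1-labelled libraries, where 34.0% of all genes tested were called higher and 29.1% lower. The median was 1.17 over HOX genes (log2) and 0.12 over all genes tested. Of the 30, 21 have a GC content of 50% to 60%. In that class the median was 1.16 for HOX genes and 0.96 for all 5306 genes, of which 55.3% were called higher. With the GC correction 5 HOX genes were higher (16.7%, background 22.8%) and 6 lower (20%, background 26.4%), both shares below the background. The median was then 0.17 over HOX genes. With the lines taken from the sample titles, 1 was higher and 0 were lower. How much of the HOX difference goes with the base composition of the control library was not tested beyond this correction.

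**Figure D4:**
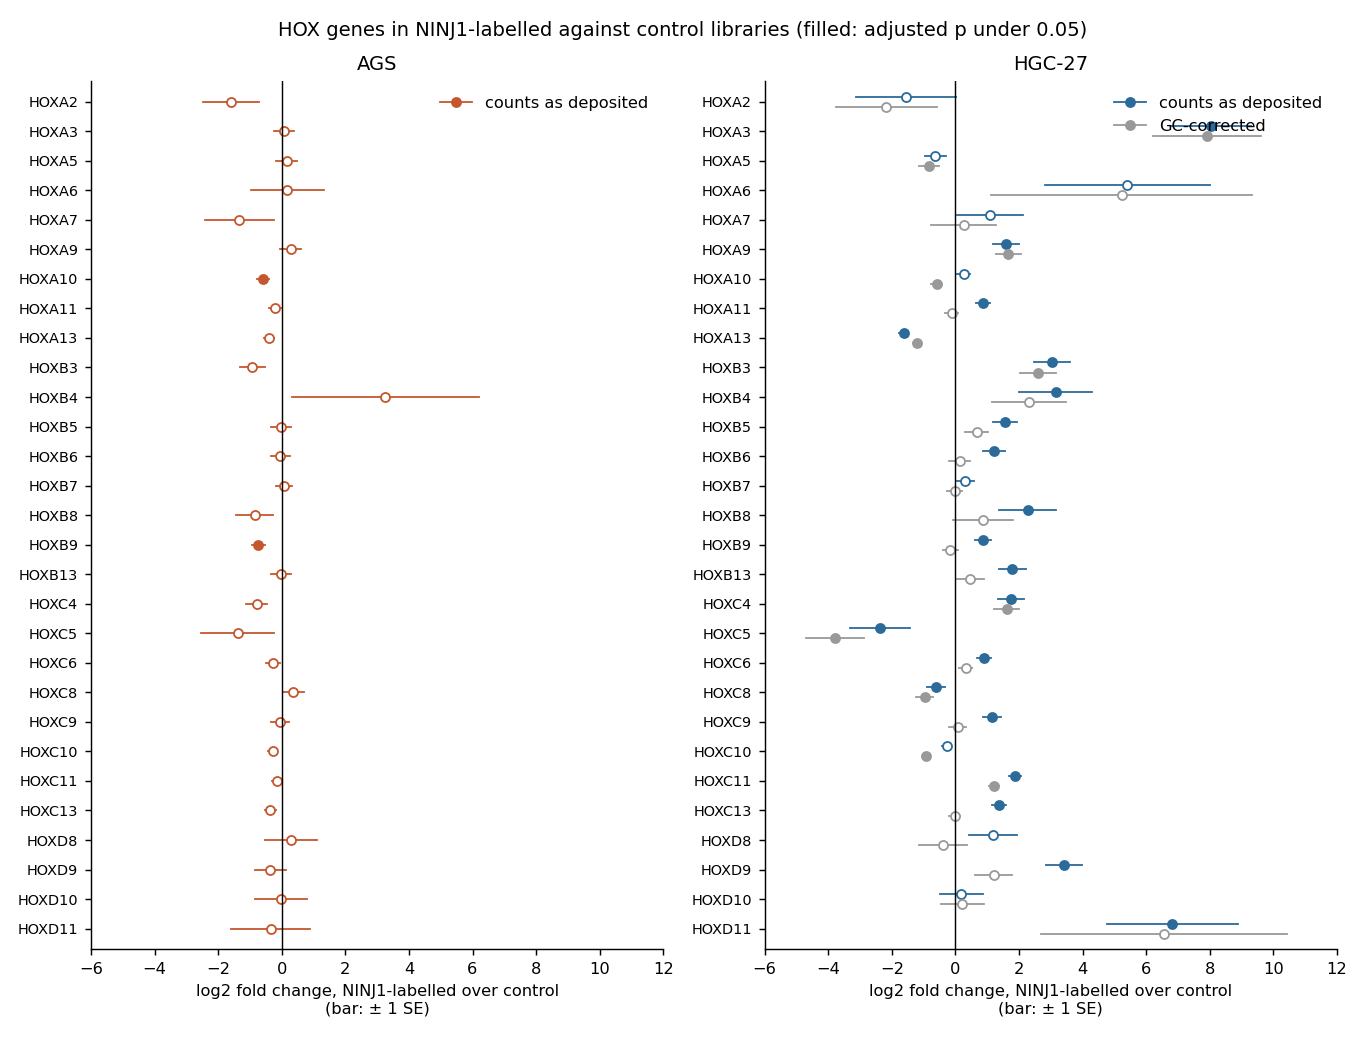
Log2 fold change of NINJ1-labelled over control libraries for 29 of the 30 HOX genes tested, in AGS (left, red) and in HGC-27 (right, blue for the deposited counts and grey after GC correction); bars are ± 1 SE and filled points have an adjusted p under 0.05. In AGS 2 points are filled, both on the left, and in HGC-27 the correction takes the filled points on the right down to 5.

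Calls that held with and without the GC correction were those of HOXA3, HOXA9, HOXB3, HOXC4 and HOXC11, all higher, and of HOXA13, HOXC5 and HOXC8, all lower. HOXC11, at 12.5 and 12.9 FPKM in the NINJ1-labelled libraries, against 2.63 in the control, was higher by 1.88 (SE 0.19, adjusted p = 2.31e-10) and after correction by 1.22 (SE 0.16, adjusted p = 9.67e-07). HOXA3 had 44 and 26 counts in the NINJ1-labelled libraries, against 0 in the control, which is at least 11.0-fold higher when 3 counts are allowed in the control. HOXB3 had 57 and 50 counts in the NINJ1-labelled libraries, against 6 in the control, a change of 3.03 (SE 0.56, adjusted p = 1.85e-05) and of 2.59 after correction (adjusted p = 0.000508).

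HOXC4 was higher by 1.75 (SE 0.40, adjusted p = 0.000278) and after correction by 1.61 (adjusted p = 0.00138). For HOXA9 the change was 1.58 (SE 0.41, adjusted p = 0.00104), and 1.66 after correction (adjusted p = 0.00115). HOXA13 went the other way, with 4.60 and 5.04 FPKM in the NINJ1-labelled libraries, against 11.3 in the control (log2 -1.63, SE 0.15, adjusted p = 3.82e-11; corrected -1.20, adjusted p = 5.35e-08). HOXA9 and HOXA13 thus changed in opposite directions at the posterior end of the same cluster. HOXC8 was lower by -0.62 (SE 0.28, adjusted p = 0.0480), a call lost without the first HGC-27 NINJ1 library (adjusted p = 0.281) and without the AGS control (0.0603). HOXC5 had 3 and 5 counts in the NINJ1-labelled libraries, against 20 in the control (log2 -2.38, SE 0.94, adjusted p = 0.0272), also lost without the first HGC-27 NINJ1 library (0.0752). It shares 59.9% of its exon bases with other transcripts.

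Other calls hung on the correction, among them those of most posterior genes. HOXC13 was higher by 1.37 (SE 0.21, adjusted p = 6.27e-07) on the deposited counts and stood at -0.03 (adjusted p = 0.919) after correction. HOXA11 was higher by 0.86 (adjusted p = 0.00182) and stood at -0.12 (adjusted p = 0.657) after correction. HOXB9 likewise was higher by 0.86 (adjusted p = 0.00514) and then stood at -0.16 (adjusted p = 0.613). For these 3 genes no difference was called after correction. HOXD9 was higher by 3.41 (adjusted p = 3.02e-06), with 1.20 (adjusted p = 0.0968) left after correction. HOXC9 was higher by 1.16 (adjusted p = 0.000556), with 0.07 (adjusted p = 0.840) left. The central gene HOXC6 was higher by 0.91 (adjusted p = 0.000672), with 0.32 (adjusted p = 0.193) left. HOXB13, HOXB5 and HOXB6 also lost their calls. Their changes were 1.79, 1.57 and 1.21 on the deposited counts (adjusted p = 0.000529, 0.000506 and 0.00262) and 0.46, 0.67 and 0.13 after correction (adjusted p = 0.409, 0.133 and 0.775). In the reverse sense HOXC10, HOXA10 and HOXA5 were called lower only after correction (-0.94, -0.59 and -0.84, with adjusted p = 5.63e-07, 0.00976 and 0.0286).

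Of low-count genes called higher on the deposited counts, HOXD11 had 11 and 19 counts in the NINJ1-labelled libraries, against 0 in the control (at least 4.66-fold higher). HOXB4 had 17 and 23 counts in the NINJ1-labelled libraries, against 2 in the control, and HOXB8 had 15 and 17, against 3. None of these 3 calls passed after correction. The fitted value of HOXD11 was 6.55 (SE 3.87, adjusted p = 0.166) after correction and 6.82 (SE 2.07) before it. With 0 counts in the control, both values depend on the fit's prior count. They cannot show whether the difference held after correction. HOXB4 stood at 2.32 after correction (adjusted p = 0.103) and 3.15 before it, and HOXB8 at 0.86 (adjusted p = 0.469) and 2.27. The calls of HOXB4 and HOXB8 were also lost without the second HGC-27 NINJ1 library (0.0512 and 0.0561). In the same comparison 4 of 4 tested epithelial markers and 3 of 3 mesenchymal markers fell, where 29.1% of all genes tested were called lower. With the GC correction it was 4 of 4 and 1 of 3 (VIM), where 26.4% of all genes tested were called lower. The epithelial markers summed to 122 and 145 FPKM in the NINJ1-labelled libraries, against 202 in the control, and the mesenchymal markers to 65.5 and 58.5 FPKM, against 99.5. Their part in the HOX result was not tested.

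The difference between these NINJ1 effects, AGS minus HGC-27, was called for 1 HOX gene above 0 (HOXA13) and 17 below 0, where 23.9% of all genes tested were above and 30.2% below. With the GC correction 3 were above (HOXC10, HOXA13 and HOXC8; background 18.9%) and 5 below (HOXC11, HOXB3, HOXC4, HOXA3 and HOXA9; background 16.4%). With the lines taken from the titles, 0 were called above or below.

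Genes that act with, upon or beside the HOX clusters were taken from lists, and AGS was compared with HGC-27 for each. Over all libraries 3.27% of all genes tested were called higher and 2.87% lower. Of 8 tested TALE cofactors, which bind DNA together with HOX proteins, 1 was higher and 0 lower (0 lower also unadjusted, by DESeq2 and by limma). PBX3 measured 5.98, 6.92 and 7.12 FPKM in the NINJ1 and control libraries of AGS, against 1.95, 1.57 and 2.20 in those of HGC-27 (log2 1.70, adjusted p = 0.0192). Without the HGC-27 control 5 were higher and 1, MEIS3, was lower, where 21.0% and 20.4% of all genes tested were called. Of the MEIS genes, whose proteins are partners of posterior HOX proteins, MEIS1 ran from 0.604 to 1.11 FPKM and MEIS2 from 0.893 to 1.40 FPKM over the 6 libraries. MEIS3 measured 3.34, 2.54 and 2.52 FPKM in the NINJ1 and control libraries of AGS, against 5.31, 6.02 and 0.870 in those of HGC-27.

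Of 21 Polycomb genes, which keep HOX genes silent, 1 was higher in AGS (PHC1, log2 1.41, adjusted p = 0.0266) and 2 were lower (PHC3, -1.49, adjusted p = 0.0210; JARID2, -0.84, adjusted p = 0.0491). EZH2, the methyltransferase of this group, measured 42.2, 34.8 and 37.8 FPKM in AGS, against 35.1, 31.2 and 33.5 in HGC-27. Of 16 Trithorax genes, which keep HOX genes active, 0 were higher (1 at an unadjusted p under 0.05; 0 by DESeq2 and limma) and 1 was lower (PSIP1, log2 -1.21, adjusted p = 0.0285). Without the HGC-27 control it was 8 higher and 4 lower for Polycomb and 6 and 3 for Trithorax genes, shares that can be read against the 21.0% and 20.4% of all genes.

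The ParaHox genes, the sister cluster that includes CDX1, CDX2 and PDX1, summed to at most 0.193 FPKM in any library and none of the 6 was tested. Of 8 tested retinoic acid genes, the signal that opens anterior HOX genes in the embryo, 0 were called by edgeR (2 higher and 0 lower at an unadjusted p under 0.05; 1 higher by DESeq2 and 0 by limma), and without the HGC-27 control 3 were higher and 1 lower. Of 9 tested protein-coding genes that flank the clusters, 0 were called by edgeR (1 higher and 0 lower unadjusted, 1 higher by DESeq2 and 0 by limma). Without the HGC-27 control 3 of them were higher and 2 lower. For both lists, the shares of all genes tested that were called without that control were 21.0% higher and 20.4% lower.

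Noncoding RNAs inside the clusters were the last list. Of 16 tested, 0 were higher by edgeR (3 at an unadjusted p under 0.05; 1 by DESeq2 and 0 of 12 by limma) and 1 was lower in AGS over all libraries: HAGLR of the HOXD cluster measured 0.0930, 0.118 and 0.112 FPKM in the NINJ1 and control libraries of AGS, against 1.24, 1.46 and 0.528 in those of HGC-27 (log2 -3.30, adjusted p = 0.0113). Without the HGC-27 control 4 were higher (HOXA-AS2, HOTAIRM1 and HOXA11-AS of the HOXA cluster and HOTAIR of the HOXC cluster). Called lower were 3 (HAGLR and HAGLROS of the HOXD cluster and HOXC-AS2 of the HOXC cluster). The shares of all genes tested were 21.0% higher and 20.4% lower. HOTAIR is antisense to the HOXC genes and known for binding Polycomb proteins. It measured 2.89, 3.50 and 5.59 FPKM in the NINJ1 and control libraries of AGS, against 2.20, 2.20 and 0.402 in those of HGC-27 (log2 0.54 without the HGC-27 control, adjusted p = 0.0460).

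Between NINJ1-labelled and control libraries, 0 of the 16 were higher and 4 lower in AGS (HOTAIR, HOXC-AS2, HOXC-AS3 and HOXC13-AS; none by DESeq2 or limma), where 5.73% and 9.30% of all genes were called. In HGC-27 10 were higher and 0 lower (0 lower also unadjusted, by DESeq2 and by limma), where 34.0% and 29.1% of all genes were called. With the GC correction it was 4 and 1, against 22.8% and 26.4% of all genes. Several overlap a HOX gene on the opposite strand, and without a stated strand setting reads of the overlap cannot be given to either gene.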

How the data were processed

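RNA of 6 libraries was analysed from the deposited tables, where every gene has, per the file headers, a read count and the authors' FPKM. The deposited counts were not normalized: all are whole, with library totals of 12619684 to 18175697. Per the submitters' processing notes, HISAT2 (no version given), HTSeq 0.13.5 and GRCh38 were used; the annotation release and strand setting are not given in the sources used here. Lines were taken from the file names, which differ from the titles for the second NINJ1 library of each line. Gene positions, exon overlaps and GC content (of the longest transcript) are from GENCODE release 29 for GRCh38.

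Counts were tested with edgeR 4.0.16 in R 4.3.3: filterByExpr with its minimum set to 10 counts, TMM scaling, two-sided quasi-likelihood F tests and Benjamini-Hochberg adjusted p under 0.05 over all genes tested. A log2 change is of TMM-scaled counts, and its standard error (SE) was obtained as |log2| over the root of F. The AGS to HGC-27 comparison had a term for treatment, and NINJ1 was compared with control within each line by a mean per line and treatment, where the spread comes from the NINJ1 pairs. The GC correction took, for each library, a lowess curve (span 0.3) of log2 CPM against GC content as offsets. The scripts recovered changed genes in simulated counts. Alternatives were DESeq2 1.42.0, its size factors, no filter, limma 3.58.1 on log2(FPKM + 1) and log2(FPKM + 0.1), each library left out, the lines as titled, 4 undisputed libraries, and a replicate block. Leaving out the HGC-27 control together with the GC correction was chosen after seeing the data.

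HOX genes with a mean of at least 1 FPKM in either line are given in every library, called ones with their statistics; of other lists, counts and up to 4 called members with the smallest p. HOXC10's rank, low-count genes with a call, MEIS1, MEIS2, MEIS3, EZH2, HOTAIR and HOXA11-AS were added after values were seen. Values of 1 member are not reported here, though counts and sums include it. Members and lists were chosen with earlier results of these data known.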

Additional observations from a re-analysis of the deposited data

Results flagged for a closer look

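For 18 HOX genes the NINJ1 effect differed between the lines by a test of the difference itself (AGS minus HGC-27, log2, edgeR with Benjamini-Hochberg adjustment), 1 above 0 and 17 below 0 of 30, where 23.9% of all genes tested were above and 30.2% below. Above 0 it was HOXA13, at 1.23 (SE 0.22, adjusted p = 1.90e-05). Posterior genes below 0 were HOXC11 at -2.03, HOXC13 at -1.74, HOXD9 at -3.77, HOXB9 at -1.60, HOXA11 at -1.08, HOXB13 at -1.81, HOXA10 at -0.85, HOXC9 at -1.22, HOXD11 at -7.17 and HOXA9 at -1.30. Central genes below 0 were HOXC4 at -2.53, HOXC6 at -1.18, HOXB5 at -1.60, HOXB8 at -3.12 and HOXB6 at -1.25, and the anterior ones were HOXB3 at -3.96 and HOXA3 at -7.96. The HGC-27 control had 0 counts of HOXA3 and HOXD11, so that these 2 fitted values depend on the fit's prior count. With the GC correction the calls of HOXA13, HOXC11, HOXB3, HOXC4, HOXA3 and HOXA9 passed again, at 0.74, -1.35, -3.50, -2.41, -7.74 and -1.40. The other 12 were not called with that correction, among them HOXC13 at -0.22, HOXA11 at -0.02 and HOXC9 at -0.06, while HOXD11 stood at -6.56 (SE 4.46). For 4 genes the call was lost when 1 library was left out: HOXA9 without the second AGS NINJ1 library (adjusted p = 0.103) or the second HGC-27 one (0.0751), HOXA10 without the second AGS one (0.0558), HOXB6 without the first AGS one (0.0570) and HOXC9 without the second HGC-27 one (0.0781). Each difference rests on 1 control per line.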

How the results depend on the processing

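Values are counts of HOX genes called unless a log2 value is named, and the cause of a shift was not tested. For AGS against HGC-27, 0 were higher and 1 lower. Higher counts were 3 (DESeq2), 1 (limma, pseudocount 1), 4 (GC correction), 1 (replicate block with GC correction), 6 (GC correction without the HGC-27 control) and 0 to 6 with a library left out; lower counts were 0 (limma with either pseudocount, 4 undisputed libraries, lines as titled, replicate block), 3 (GC correction), 5 (GC correction without the HGC-27 control) and 0 to 6 with a library left out. For NINJ1 against control in AGS, 2 lower became 0 (DESeq2, limma with either pseudocount, lines as titled), 1 (replicate block) and 0 to 4 with a library left out. In HGC-27, 17 higher became 1 (lines as titled) and 5 (GC correction, with or without the block), and 3 lower became 1 (DESeq2, limma), 0 (lines as titled) and 6 (GC correction, with or without the block). For the difference, 1 above became 2 (DESeq2 size factors, replicate block), 0 (lines as titled), 3 (GC correction, with or without the block) and 1 to 2 with a library left out, and 17 below became 8 (DESeq2), 11 (limma, pseudocount 1), 0 (lines as titled) and 5 (GC correction, with or without the block). With lines as titled the AGS shares of HOX FPKM were 2.50% anterior, 75.6% posterior, 24.5% HOXA, 17.1% HOXB, 55.7% HOXC and 2.67% HOXD, and those of HGC-27 1.96% anterior, 74.1% posterior and 57.3% HOXC; with paralogue group 4 counted as anterior that class held 4.62% in AGS and 3.17% in HGC-27.

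Of 725 single-gene values under alternatives, 23 changed direction. Between the lines HOXC4 stood at -0.76 without the AGS control, -0.77 without the HGC-27 control (also with GC correction), up to 0.50 with another library left out, and -0.03 with the GC correction (also with the block); with lines as titled HOXA13 stood at -0.06, HOXC6 at 0.23, HOXC9 at 0.46, HOXD9 at 1.10 and HOXD11 at 1.26, and over the 4 undisputed libraries HOXD9 at 0.35 and HOXD11 at 0.33. In HGC-27, with the GC correction and again with the block added, HOXA11 stood at -0.12 and -0.13, HOXB9 at -0.16 and -0.14 and HOXC13 at -0.03 and -0.05, and HOXC9 at -0.08 with the block. For the difference HOXA10 stood at 0.04 with the GC correction (also with the block), and with lines as titled HOXC6 stood at 0.65 and HOXC9 at 0.68. Replicate 1 minus replicate 2 correlated between the lines at 0.00841 over 17617 genes and at 0.144 over the 6249 with a mean log2 CPM of at least 5; the labels name nothing that the numbers share, so the pairing was not used, and whether the numbers pair libraries is not settled. NINJ1 could not be tested within a line without that line's control or on the 4 undisputed libraries. At no more than 19, 23 and 22 counts in any library, as for HOXD11, HOXB4 and HOXA2, depth limits what can be seen.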
